A study of Mus musculus with 9 samples.

Results

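Bmf and the Bcl-2 family were examined in renal vesicles of wild-type and Lim1 mutant mouse embryos. The renal vesicle is the epithelial ball from which each nephron grows, and Lim1 (now named Lhx1) is a transcription factor of the LIM homeodomain class that acts there. The members were 10 genes: the BH3-only genes Bmf, Bcl2l11 (Bim), Bbc3 (Puma), Pmaip1 (Noxa) and Bid, the effectors Bax and Bak1, and the survival genes Bcl2, Bcl2l1 (Bcl-xL) and Mcl1. All probe sets carrying 1 of these names as their single gene symbol in the platform annotation were taken, which gave 30 probe sets of 9 genes, out of 45101 probe sets and 18194 genes. Bax had no probe set named in that annotation and was not analysed here.

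Bmf was chosen by its mutant minus wild-type difference, which ranked high among all genes of these arrays. Its values are therefore given as a description, with no test. The other genes were chosen as its family.

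Vesicles were cut by laser capture microdissection from E12.5 kidneys, about 30 to 50 vesicles per sample, and each sample was hybridised to 1 Affymetrix array after 2 rounds of RNA amplification. There were 5 wild-type and 4 Lim1 mutant arrays, described by the labels as biologically independent. The labels used here do not give the allele, its zygosity, the strain, any Cre driver or the number of embryos pooled in a sample. The signal is the intensity per probe set that the authors deposited, scaled so that each array has the same trimmed mean.

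The Bcl-2 family sets the threshold for the mitochondrial route of apoptosis. Survival members bind and hold back the effectors Bax and Bak1, which otherwise open the outer mitochondrial membrane and release cytochrome c. BH3-only proteins are the sensors of the pathway: they occupy the groove of survival members, and some of them also engage the effectors directly. Bmf is held at the myosin V motor through dynein light chain and is best known for a part in death after loss of cell attachment. In the mouse kidney, loss of Bcl2 leads to cystic kidneys, and removing Bcl2l11 in addition relieves that defect.

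The promoters of the gene on which the results turn are shown first. RefSeq windows (GRCm38.p6) run from 250 bases before to 50 bases after an annotated transcript start, so the start is at position 251 of each, counted from 1 at the 5′ end. Windows of 9 members were used, 16 in all, and none of Pmaip1. Bmf lies on the minus strand of chromosome 2 and has 3 annotated starts. Capitals mark CAGCTG, an E-box, which is its own reverse complement. It was searched for after the sequences had been read.
Bmf start 1, chr2:118549637-118549936, minus strand: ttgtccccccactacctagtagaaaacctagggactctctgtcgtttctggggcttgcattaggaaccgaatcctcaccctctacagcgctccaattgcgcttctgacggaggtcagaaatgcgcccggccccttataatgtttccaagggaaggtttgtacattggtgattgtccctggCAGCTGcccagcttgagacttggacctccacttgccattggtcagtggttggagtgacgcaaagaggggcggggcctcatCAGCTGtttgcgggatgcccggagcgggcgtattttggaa
Bmf start 2, chr2:118547550-118547849, minus strand: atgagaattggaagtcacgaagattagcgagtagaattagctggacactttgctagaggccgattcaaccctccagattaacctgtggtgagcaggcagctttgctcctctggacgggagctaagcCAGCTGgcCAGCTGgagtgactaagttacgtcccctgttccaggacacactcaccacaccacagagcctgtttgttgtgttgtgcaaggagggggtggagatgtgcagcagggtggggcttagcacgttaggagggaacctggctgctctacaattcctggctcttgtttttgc
Bmf start 3, chr2:118544538-118544837, minus strand: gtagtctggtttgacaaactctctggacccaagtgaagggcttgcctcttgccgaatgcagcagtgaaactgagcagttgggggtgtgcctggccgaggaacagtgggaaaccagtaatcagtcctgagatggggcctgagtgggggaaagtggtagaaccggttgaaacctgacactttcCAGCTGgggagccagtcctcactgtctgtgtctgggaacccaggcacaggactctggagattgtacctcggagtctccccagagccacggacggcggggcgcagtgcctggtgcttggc

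The E-box stood at positions 181 and 261 of the first window, 127 and 135 of the second and 182 of the third. Of all 32851 RefSeq windows of this length, 16.3% hold it, and 4 of the 16 member windows did. The Bmf windows held 13, 6 and 8 CpG dinucleotides, against a median of 7 over all windows. Those of Bcl2, Bcl2l11 and Bbc3 held 27 to 44 each, and that of Mcl1 33. The windows of Bid, Bax and Bak1 held 22, 19 and 11, and those of Bcl2l1 22, 14 and 1. TAATTA, the core of many homeodomain sites and also its own reverse complement, was in none of the 16 member windows and in 5.29% of all windows. These are matches of letters and do not show binding.

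GTAAACA (either strand), a forkhead motif, was in 2 of the 16 member windows and in 3.65% of all windows. Those windows belong to Bcl2l11 and Bbc3, 2 BH3-only genes known as targets of FOXO factors, and are printed for comparison with Bmf, whose windows lack these letters. Capitals mark the forkhead motif or its reverse complement.
Bcl2l11 start 1, chr2:128125788-128126087, plus strand: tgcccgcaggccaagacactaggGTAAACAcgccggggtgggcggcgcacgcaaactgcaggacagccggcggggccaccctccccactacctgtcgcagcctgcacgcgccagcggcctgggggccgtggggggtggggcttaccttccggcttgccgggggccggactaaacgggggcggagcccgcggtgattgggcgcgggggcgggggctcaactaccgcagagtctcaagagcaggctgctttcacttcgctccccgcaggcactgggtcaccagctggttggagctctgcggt
Bbc3 start 2, chr7:16310011-16310310, plus strand: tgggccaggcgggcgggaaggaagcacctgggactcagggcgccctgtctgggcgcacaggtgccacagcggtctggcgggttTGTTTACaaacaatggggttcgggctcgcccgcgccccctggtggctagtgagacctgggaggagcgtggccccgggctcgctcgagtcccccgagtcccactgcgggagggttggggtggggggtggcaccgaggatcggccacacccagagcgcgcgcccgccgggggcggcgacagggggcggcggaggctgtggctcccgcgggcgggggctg

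Array medians ranged from 144 to 195. Across probe sets, wild-type arrays 3 and 1 were least like the others, at a mean r of 0.849 and 0.859, against 0.877 to 0.901 for the other 7 arrays. The mutated gene Lhx1 read 2327 to 17590 in the wild type and 6.88 to 10.5 on the mutant arrays at 1 probe set, and 1696 to 18560 against 4108 to 4951 at its other probe set. Vesicle markers were present on all 9 arrays: Wnt4 read at least 12930, Jag1 at least 20140 and Pax8 at least 2259. The ratio of 3 prime to 5 prime Gapdh signal, a measure of transcript length after amplification, was 12.4 to 87.6 in the wild type and 17.8 to 61.4 on the mutant arrays, highest on wild-type array 3.

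Differences were fitted with limma on the log2(signal + 42.41) scale after quantile normalisation, over the 27022 probe sets at or above the 40th percentile of mean signal, and p values were adjusted over all of these by the Benjamini-Hochberg method. On this scale the change of dim probe sets is understated. Of the 30 member probe sets, 23 passed this filter, with at least 1 for each of the 9 genes, and the other 7 were too dim to be tested. No member probe set reached adjusted p 0.05 in limma, where 0.0333% of all tested probe sets did. At an unadjusted p under 0.05 stood 2 of the 23, both of Bmf, against 6.67% of all tested probe sets. Nothing is read from the Bmf part of these counts, because its difference chose the gene.

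At 1454880_s_at, the brighter of the Bmf probe sets that passed the filter, signal stood higher in every mutant than in every wild-type array. A separation in that direction was found at 1.37% of all tested probe sets. The wild-type arrays 1 to 5 read 812, 2958, 1267, 1964 and 1684, a mean of 1737 ± 810 (SD, n = 5). The mutant arrays 1 to 4 read 7741, 9689, 9096 and 7048, a mean of 8394 ± 1212 (SD, n = 4). The groups were well apart: the lowest mutant array stood 2.38-fold above the highest wild-type array, and the means differed 4.83-fold. The fitted log2 difference was 2.33 ± 0.35 (SE). Of the 27022 tested probe sets, 76 had a larger positive difference, and at 30 of those the groups did not overlap either. In whole vesicles, more cells that carry a transcript and more transcript per cell cannot be told apart.

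At the dimmer Bmf probe set 1458325_x_at the wild-type arrays read 60.6, 188, 46.1, 135 and 53.9. The mutant arrays read 285, 263, 268 and 264, all close together. Here too the groups did not overlap, with means of 96.7 ± 62.3 and 270 ± 10.4 and a log2 difference of 1.21 ± 0.39. The filter used the mean over all 9 arrays, so the higher mutant signal helped this dim probe set pass it. Its separation is therefore not set against the share over all tested probe sets. The deviations of these 2 probe sets from their group means correlated at r = 0.81 over the 9 arrays. They read the same gene in the same RNA and are not replicates of each other.

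The remaining Bmf probe set, 1422995_at, lay below the filter. It read 8.94 to 32.0 in the wild type, and 263, 28.3, 173 and 449 in mutant arrays 1 to 4. Mutant array 2 overlapped the wild type there, although it had the highest signal of all arrays at 1454880_s_at. In Affymetrix names, an s marks probes shared by several transcripts and an x probes that may match other sequences, and both tested Bmf probe sets carry such a mark.

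**Figure D1:**
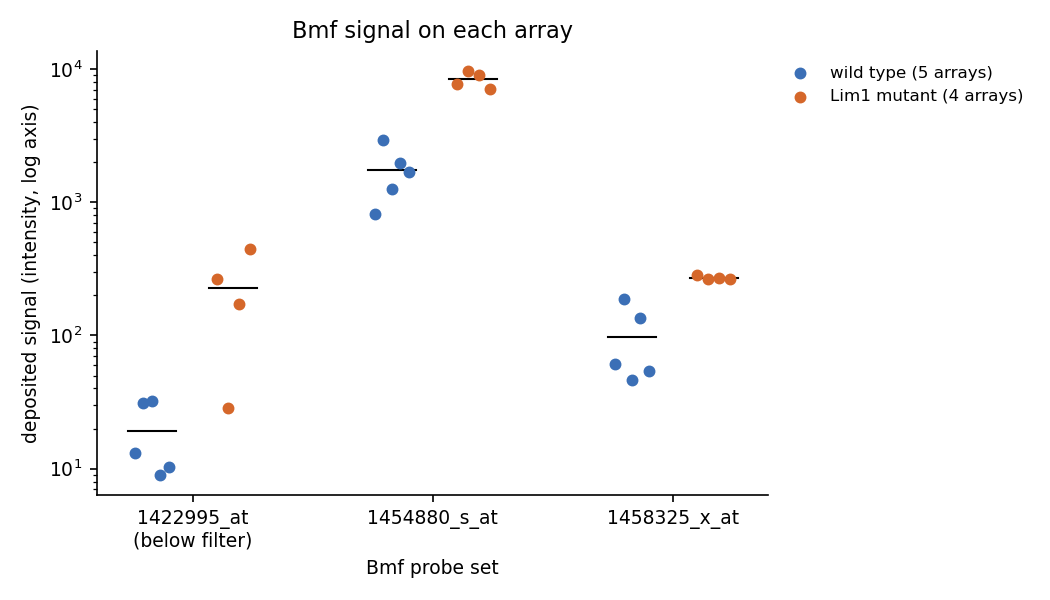
Deposited signal (intensity, log axis) of the 3 Bmf probe sets on each array, with wild type in blue, Lim1 mutant in orange and a bar at each group mean. At 1454880_s_at the mutants sit at 7048 to 9689 and the wild type at 812 to 2958, while at 1422995_at, below the filter, 1 mutant lies among the wild-type arrays.

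The other BH3-only genes did not pass the test at any probe set. Bcl2l11, a potent activator of apoptosis that binds all survival members, had differences above 0 at 4 of its 4 tested probe sets, where 52.7% of all tested probe sets were above 0. Its brightest, 1435448_at, read 3583, 7405, 8622, 5024 and 5873 in the wild type and 11690, 10540, 7704 and 6333 on the mutant arrays. Mutant arrays 1 and 2 stood above every wild-type array, and mutant arrays 3 and 4 lay within the wild-type range. The log2 difference was 0.60 ± 0.30 (95% interval -0.07 to 1.27, adjusted p = 0.786 in limma). At 1456006_at the signals were 173 ± 75.1 in the wild type and 304 ± 93.7 on the mutant arrays, a difference of 0.63 ± 0.42.

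The further Bcl2l11 probe sets varied more. At 1456005_a_at the wild type ranged from 59.6 to 2461 and the mutants from 1024 to 4237, with a log2 difference of 1.30 ± 0.84. At 1435449_at the difference was 0.87 ± 0.99, with signals of 20.5 to 1303 and 41.0 to 1091. The groups overlapped at all of these, and 1426334_a_at lay below the filter at means of 56.4 and 139.

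Pmaip1, a BH3-only gene known for binding Mcl1, varied more between arrays of 1 group than between the groups. Its probe set 1418203_at read 541, 520 and 1748 on arrays 2, 4 and 5 of the wild type, and at most 12.07 on arrays 1 and 3. The mutants read 1356, 17.2, 476 and 505. Wild-type arrays 1 and 3 and mutant array 2 were thus near the floor, and the other 6 arrays stood at 476 or higher. The log2 difference was 0.55 ± 1.19 (95% interval -2.06 to 3.16, adjusted p = 0.958), and it was -1.05 without wild-type arrays 1 and 3.

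Bbc3, which binds every survival member, was dim on all arrays. It read 292, 353, 256, 216 and 183 in the wild type and 258, 374, 358 and 312 on the mutant arrays, and the groups overlapped. Its log2 difference was 0.17 ± 0.40 (95% interval -0.70 to 1.05, adjusted p = 0.96).

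Bid links death receptors to the mitochondria once caspase 8 has cut it. At 1417045_at it read 1283, 1462, 23.7, 537 and 1342 in the wild type and 214, 305, 727 and 969 on the mutant arrays. Wild-type array 3 was far below the other arrays of both groups, and the difference was -0.34 ± 0.92 (adjusted p = 0.97). Its other tested probe set, 1447873_x_at, had the opposite sign at 0.20 ± 0.44, and 1448560_at lay below the filter.

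Of the effectors, Bak1 was measured. At 1418991_at the wild type read 367, 325, 602, 229 and 271 and the mutants 245, 329, 225 and 611, which overlap over nearly their whole range. The log2 difference was -0.16 ± 0.47 (95% interval -1.19 to 0.87, adjusted p = 0.972). Its other probe set, 1425716_s_at, lay below the filter and read at most 94.7.

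Among the survival genes, Bcl2 had differences below 0 at 5 of its 5 tested probe sets, from -1.43 to -0.64, and none passed the test. At 1457687_at the wild type read 2043, 3169, 3149, 2804 and 1958 and the mutants 1365, 1865, 2426 and 1230. Mutant array 3 lay among the wild-type arrays and the other mutants below them, and the log2 difference was -0.64 ± 0.35 (95% interval -1.39 to 0.12, adjusted p = 0.795). At 1437122_at the wild type read 959, 1346, 1567, 1251 and 1002 and the mutants 751, 447, 680 and 1113. The deposited signals overlap through mutant array 4. After quantile normalisation they did not, as at 0.884% of all tested probe sets with the mutants lower, and the difference was -0.76 ± 0.38 (adjusted p = 0.786).

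The largest Bcl2 difference, -1.43 ± 0.73 (adjusted p = 0.786), was at 1443837_x_at. There the wild type read 341, 1713, 6797, 4108 and 2572 and the mutants 1743, 501, 421 and 1119. Wild-type array 1 had the lowest signal of all 9 arrays, and the other 4 wild-type arrays stood above 3 of the 4 mutants. Without wild-type arrays 1 and 3 the difference was -1.62. At 1422938_at mutant arrays 2 and 4, at 62.5 and 52.9, were below every other array, and mutant arrays 1 and 3, at 304 and 479, lay within the wild-type range of 289 to 572. The difference there was -1.16 ± 0.58 (adjusted p = 0.784). At the dimmest, 1440770_at, it was -1.05 ± 0.94. The 5 probe sets read 1 gene in the same RNA and are not independent.

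**Figure D2:**
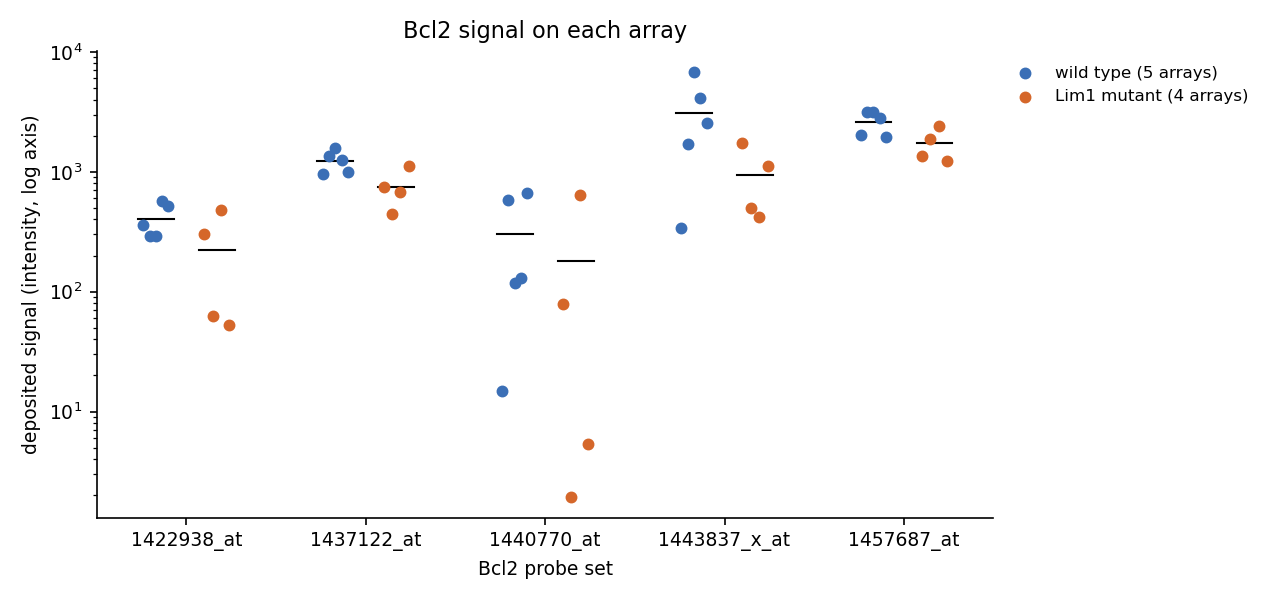
Deposited signal (intensity, log axis) of the 5 tested Bcl2 probe sets on each array, with wild type in blue, Lim1 mutant in orange and a bar at each group mean. The mutant mean is lower at all 5 probe sets and the groups overlap at each, for instance at 1457687_at with 1958 to 3169 against 1230 to 2426.

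Mcl1, a short-lived survival protein, was bright, and its best measured probe sets differed little between the groups. At 1437527_x_at it read 29460, 27090, 38910, 31440 and 26370 in the wild type and 31520, 29230, 36340 and 30820 on the mutant arrays. The groups overlapped throughout, and the log2 difference was 0.07 ± 0.15 (adjusted p = 0.956). Its 95% interval of -0.26 to 0.41 was among the narrowest of the members. At 1416880_at, 1456243_x_at and 1456381_x_at the differences were -0.02, 0.04 and -0.01, with intervals within -0.46 and 0.44.

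The other Mcl1 probe sets gave 0.43 ± 0.38 (1448503_at) and 1.08 ± 0.77 (1416881_at, adjusted p = 0.848). At the latter, wild-type array 3 read 145 and the other 8 arrays 1225 to 4633, and the difference was 0.01 without wild-type arrays 1 and 3. Wild-type array 3, which had the highest Gapdh ratio, also read lowest or next to lowest at the tested probe sets of Bid and Pmaip1. Elsewhere the same array read highest of all: at Mcl1 1437527_x_at (38910), 1456243_x_at (31770) and 1456381_x_at (17830), and at Bcl2 1443837_x_at (6797). The part of transcript length in these values was not tested.

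Bcl2l1, the survival gene with 1 tested probe set of 4, read 3248, 2650, 1859, 3052 and 2756 in the wild type and 2405, 3720, 3815 and 2636 on the mutant arrays at 1420888_at. Mutant arrays 2 and 3 were the highest of all 9 arrays and the groups overlapped. The log2 difference was 0.21 ± 0.31 (95% interval -0.48 to 0.89, adjusted p = 0.938). Its other probe sets read at most 101 on any array.

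**Figure D3:**
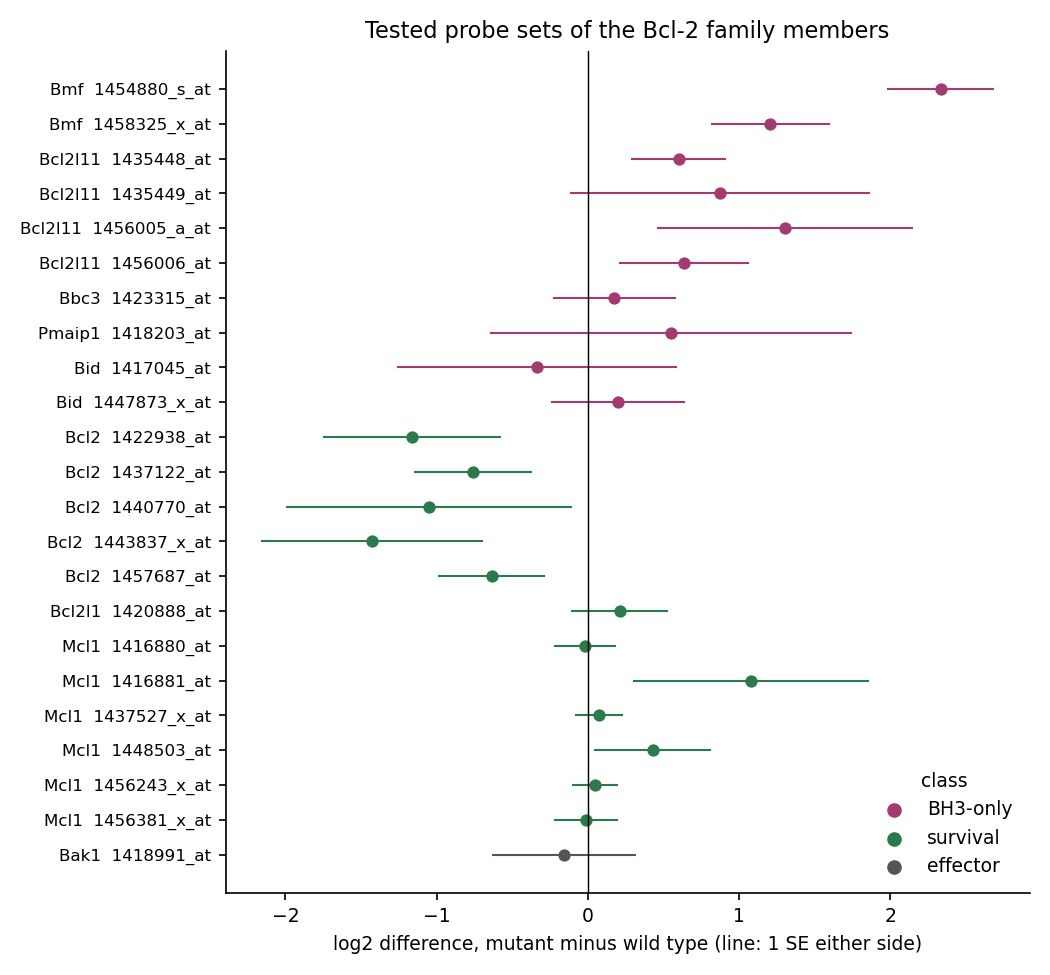
Log2 difference, mutant minus wild type, of the 23 tested member probe sets, as points with a line of 1 SE to either side, coloured by class. Bmf stands at 2.33 and 1.21, the 4 Bcl2l11 points lie between 0.60 and 1.30, the 5 Bcl2 points between -1.43 and -0.64, and 4 of the 6 Mcl1 points within 0.08 of 0.

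**Figure D4:**
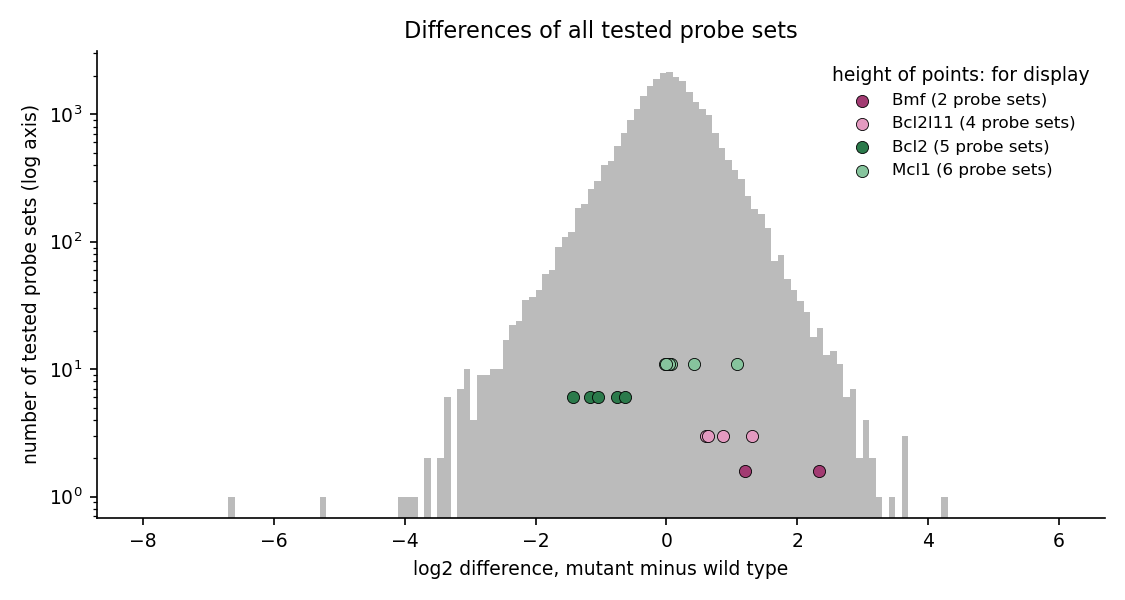
Histogram of the log2 differences of all 27022 tested probe sets (count on a log axis), with the probe sets of Bmf, Bcl2l11, Bcl2 and Mcl1 as points whose height is for display. The brighter Bmf probe set, at 2.33, lies in the right tail with 76 probe sets beyond it. The dimmer Bmf probe set, at 1.21, has 1087 beyond it. The points of Bcl2l11, Bcl2 and Mcl1 lie between -1.43 and 1.30.

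Pro-death and survival members were also compared as classes, by the median over their genes of the log2 deviation, which is taken from the gene's own mean on the 9 arrays. The class of pro-death members with a tested probe set held 6 genes. It stood at -0.69 to 0.07 on the wild-type arrays and at 0.19 to 0.66 on the mutants, without overlap. Without Bmf the groups overlapped: over the other 5 genes the range was -0.46 to 0.31 in the wild type and -0.32 to 0.65 on the mutant arrays. Leaving out another gene instead was not tried. The 3 survival genes stood at -0.06 to 0.26 and -0.28 to 0.25, which also overlap. The pro-death minus survival level without Bmf averaged -0.08 ± 0.33 over wild-type arrays (SD, n = 5) and 0.25 ± 0.35 over mutant arrays (n = 4). No test was made on these levels, since the members were chosen with the result known.

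**Figure D5:**
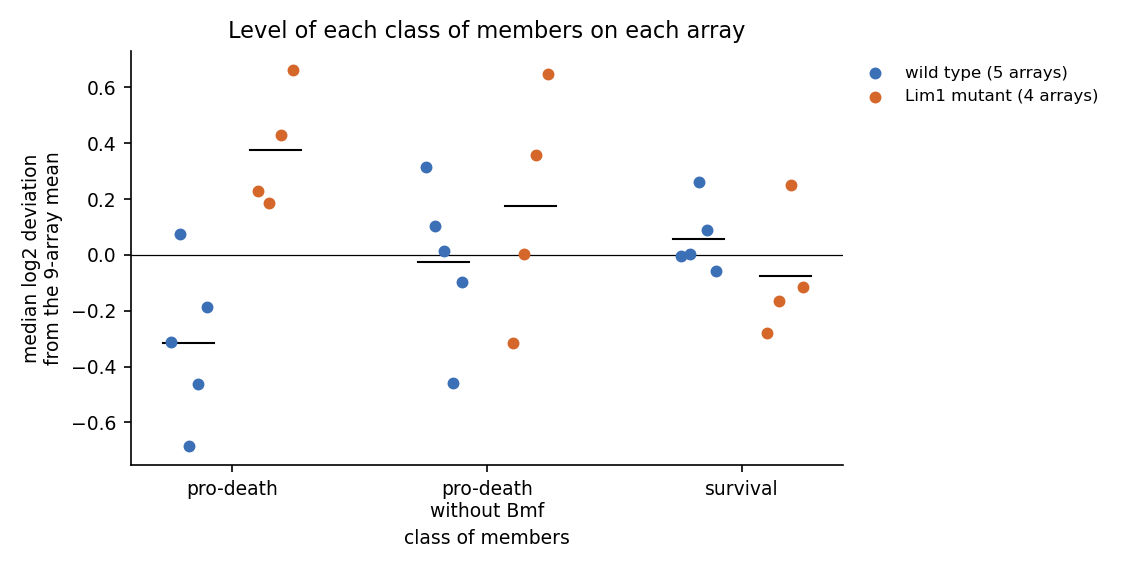
Level of each class of members on each array, as the median log2 deviation from the mean over 9 arrays, with wild type in blue, Lim1 mutant in orange and a bar at each group mean. Pro-death members separate the groups with Bmf (-0.69 to 0.07 against 0.19 to 0.66) and overlap without it, as do the survival members.

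At the level of genes, each represented by its tested probe set of highest mean, the 9 measured members had a median difference of 0.17, and 6 of 9 were above 0. Over all 13226 genes tested the median was 0.07, with 56.5% above 0. Besides Bmf, no member gene had groups without overlap, where 2.77% of all genes did.

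Of the other family members, 8 of 11 genes had a named probe set and 7 were tested. None passed, and 2 had differences above 0 and 5 below. Bik, a BH3-only gene, had the largest: it read 1612, 567, 400, 1743 and 258 in the wild type and 172, 262, 582 and 76.9 on the mutant arrays (log2 difference -1.58 ± 0.67, adjusted p = 0.737). A dimmer Bik probe set gave -1.31, and the groups overlapped at both. Bad, a BH3-only protein controlled by phosphorylation, had a difference of 0.49 ± 0.38 (-0.21 at its other probe set). Bcl2l13, a mitochondrial outer membrane protein, had -0.63 ± 0.35 and 1.09 at its probe sets, which disagree in sign.

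Bok, a relative of the effectors, was at -0.06 ± 0.37. Bcl2l14 was at -0.44 ± 0.66, Hrk, a BH3-only gene best known from neurons, at 0.15 ± 0.49, and Bcl2l2, the survival gene also named Bcl-w, at -0.02 ± 0.45. The other tested probe sets of Hrk (-0.63 ± 0.61) and Bcl2l2 (0.21 ± 0.50) had the opposite sign. Bcl2l10 lay below the filter, and Bcl2a1a, Bcl2a1b and Bcl2a1d were not analysed here.

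The pathway around the family was followed through 42 further genes, of which 37 were tested. None passed the test (adjusted p 0.691 to 0.998 in limma), where 0.0529% of all genes did, 18 were above 0 and 19 below, and none had groups without overlap at its representing probe set. Together with the other family members, 7 of 44 genes (15.9%) had an unadjusted p under 0.05, against 7.73% of all genes tested. These 7 were Bik, Casp6, Birc3, Usp9x, Btrc, Htra2 and Dynll2, named after their values were seen. The lists were chosen with earlier results of these data known, so the share is a description only. Over the alternative settings the count ran from 4 to 7.

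Of the anchors of Bmf, Dynll2, the light chain that binds it, read 6407, 6272, 6108, 3471 and 5852 in the wild type and 5394, 9668, 9200 and 11560 on the mutant arrays. Mutant arrays 2 to 4 stood above every wild-type array and mutant array 1 within them (log2 difference 0.67 ± 0.30, adjusted p = 0.745). A further Dynll2 probe set gave 0.20. Dynll1, its close relative, was at 0.04 ± 0.13, with -0.31 to 0.21 at its further tested probe sets. Myo5a, a myosin V heavy chain, was at -0.46 ± 0.48, and its further tested probe sets had the opposite sign at 0.62 ± 0.58 (1431320_a_at) and 0.12 ± 1.04 (1419754_at).

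Casp6, an effector caspase, read 2781, 7150, 2896, 955 and 1806 in the wild type and 5949, 6273, 6525 and 8305 on the mutant arrays at 1415995_at. Wild-type array 2 lay among the mutants and the other 4 below them (log2 difference 1.44 ± 0.50, adjusted p = 0.696). At its dimmer probe set, 1458715_at, the groups did not overlap, with 14.3 to 107 in the wild type and 126 to 1424 on the mutant arrays. Such a separation with the mutants higher was found at 1.37% of all tested probe sets. The higher mutant signal helped this dim probe set pass the filter, so its separation is partly built in.

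Downstream of the mitochondria, 3 of 9 genes of mitochondrial exit and the apoptosome were above 0 and 6 below, with a median of -0.06. Htra2, a mitochondrial protease that binds inhibitors of apoptosis, read 24590, 13030, 25700, 19540 and 15350 in the wild type and 10260, 14780, 12610 and 14230 on the mutant arrays at 1436269_s_at. Wild-type arrays 1, 3, 4 and 5 stood above every mutant (log2 difference -0.55 ± 0.22, adjusted p = 0.729). At its other probe set, 1460495_s_at, the range was 6809 to 12490 against 3956 to 6382, without overlap. The same was found at 0.884% of all tested probe sets with the mutants lower. Cycs, which encodes cytochrome c, was at -0.28 ± 0.14, and at -0.44 and -0.50 at its further tested probe sets. Apaf1, the scaffold of the apoptosome, was at -0.42 ± 0.53 and Casp9, its caspase, at -0.44 ± 0.55. The other tested Casp9 probe set, 1426125_a_at, had the opposite sign at 0.68 ± 0.48.

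Among 5 inhibitors of apoptosis, 3 were above 0 and 2 below. Birc3, a ubiquitin ligase of that family, read 31.4, 591, 4633, 255 and 560 in the wild type and 38.5, 35.5, 47.3 and 75.2 on the mutant arrays. Wild-type array 1 was as low as the mutants and the other 4 wild-type arrays stood above them (log2 difference -2.56 ± 0.93, adjusted p = 0.696). Xiap, the direct caspase inhibitor, was at 0.09 ± 0.37, with -0.99 to 0.17 at its further tested probe sets.

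Of the enzymes that set the turnover of Mcl1 and Bim, Usp9x, a deubiquitinase that stabilises Mcl1, read 12800, 4974, 5157, 14800 and 12040 in the wild type and 4976, 2960, 5418 and 3193 on the mutant arrays. Wild-type arrays 1, 4 and 5 were far above the mutants and arrays 2 and 3 within their range (log2 difference -1.15 ± 0.39, adjusted p = 0.691). Its further tested probe sets gave -0.97 to 0.08. Btrc, an F-box protein that marks Bim for degradation, was at 1.47 ± 0.54 (adjusted p = 0.703). Its further tested probe sets gave differences of both signs, from -1.43 to 0.78. Huwe1, a ubiquitin ligase for Mcl1, was at -0.10 ± 0.23, and at 0.31 and 0.30 at its further tested probe sets.

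The regulators of BH3-only genes had a median of 0.25 over 9 tested genes, 6 above 0 and 3 below. Foxo3, a forkhead activator of Bcl2l11 and Bbc3, was at 0.42 ± 0.27, Ddit3, a factor of the unfolded protein response, at 0.59 ± 0.49, and Mapk9, a JNK kinase, at 1.32 ± 0.78. None passed (adjusted p 0.807 to 0.97). The death receptor arm had a median of -0.21 over 6 tested genes, with Casp8 at -0.67 ± 0.51 and its inhibitor Cflar at 0.73 ± 0.65. The other tested Cflar probe set, 1449317_at, had the opposite sign at -1.33 ± 0.85. Trp53 and Ripk1 were not analysed here, and Fas lay below the filter.

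Markers of neighbouring cells were set beside these values, as the median log2 deviation of each list. Of 11 macrophage genes 10 were tested, at -1.28 to 1.23 in the wild type, highest on array 3, and -0.14 to 0.74 in the mutants. Of 9 endothelial genes 7 were tested, at -0.58 to 1.78 and -0.82 to 0.06. Of 7 ureteric bud genes 6 were tested, at -0.37 to 1.50 and -1.34 to 0.38. Of 7 stroma genes all were tested, at -1.26 to 1.97 and -0.84 to 1.20. Erythroid genes (6 of 8 tested) were at -0.61 to 0.40 and -0.73 to 0.57, and cap mesenchyme genes (7 of 8) at -0.50 to 0.47 and -0.17 to 0.11. The vesicle's own markers (11 of 12) were at -0.60 to 0.71 and -0.40 to -0.16. The ranges overlap for each list, and no defining marker was listed at 0. These deviations do not show the absolute signal. Of the erythroid genes, Hbb-y read at least 32680 on every array, whereas Gata1 read at most 182. By gene, 8 of 10 macrophage, 0 of 7 endothelial and 1 of 6 ureteric bud genes had differences above 0. So had 3 of 7 cap mesenchyme, 3 of 7 stroma, 2 of 6 erythroid and 4 of 11 vesicle genes. The share over all genes tested was 56.5%. Groups did not overlap at Meox1, Adgre1 and Meis1 (mutants higher) or at Emx2 (mutants lower), as at 2.77% of all genes. No marker passed the test, and Cited1, Gata3, Pecam1, Tie1, Aif1 and Hba-a1 lay below the filter. The part of these cells in the values of Bmf and Bcl2 was not tested.

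Genes whose pattern was most like that of Bmf 1454880_s_at over the 9 arrays were A330001L22Rik (r = 0.96), G6pc2 (r = 0.95), Suox (r = 0.95), Nipal3 (r = 0.95) and Foxc2 (r = 0.945), among 13225 other genes. Pearson's r on the log2 scale was the measure, it includes the gap between the groups, and at all 5 the mutants stood above the wild type. Foxc2, a forkhead transcription factor known from early podocytes, read 2296 to 8207 in the wild type and 8415 to 13400 on the mutant arrays. With group means removed, the closest were Lrrc40, Eid2, Sgk2, Aaas and Chd2, at r of 0.93 to 0.95, and their groups overlapped. Among the members, the r with Bmf after removing group means ran from -0.58 (Bak1) to 0.47 (Pmaip1).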

How the data were processed

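Per the labels' protocols, RNA was amplified in 2 rounds with an Epicentre kit and labelled with biotin. The authors deposited 1 linear intensity per probe set and array, made with Affymetrix GCOS per the submitters' processing notes. Its algorithm, version and target are not given in the sources. Each array had a mean of 1500 once 2% of values were trimmed from each end. Intensities were taken as log2(value + 42.41), the 25th percentile, and quantile normalised because array medians ranged over 0.349. Control probe sets (64) were left out. The fit was limma 3.58.1 in R 4.3.3 (lmFit, eBayes with a trend, two-sided, group as the only term), tested on simulated data. Standard errors and intervals are from that fit, and their precision is limited by the 9 arrays. Whether groups overlap is judged on deposited signals per array and on normalised values in counts. The platform annotation gave 34958 probe sets 1 symbol, 932 several and 9211 none, and only the first were named. Members and lists were chosen with earlier results of these data known. Named were the members, Lhx1, the other family genes, and the 5 genes most like Bmf by each measure. No pathway gene passed the threshold or had groups without overlap at its representing probe set. The pathway genes named were picked from the lists with their values known. Alternatives covered normalisation, filter, pseudocount, variance model, array weights, replicate number and arrays left out.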

Additional observations from a re-analysis of the deposited data

Results flagged for a closer look

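At the dimmest tested Bcl2 probe set, 1440770_at, mutant array 3 read 637.2 and the other mutant arrays 1.95 to 78.2, a gap that passed Dixon's test. Among 46 groups of member values 1 was so marked, where chance gives about 1 in 20, or 2.3.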

How the results depend on the processing

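The Bmf difference of 2.33 lay between 1.95 (without wild-type arrays 1 and 3) and 2.54 over 19 alternatives and kept its sign in each. No member probe set passed in any of them, and none of the family and pathway genes did. Of the 21 tested member probe sets other than those of Bmf, 14 kept their sign in every alternative that tested them, those of Bcl2 and Bcl2l11 included, and 7 did not. Their lowest adjusted p was 0.534. The number of probe sets that passed over the whole table was 9, and it was 3 to 8 with 1 array left out: 3 without wild-type array 2 or 4 or mutant array 2 or 3, 4 without wild-type array 5 or mutant array 4, and 5 without mutant array 1. Without wild-type arrays 1 and 3 limma called 0 of them, and 2012 had an unadjusted p under 0.05. With the replicate number as a block the count was also 0, with 1756 at an unadjusted p under 0.05, and the Bmf difference was 2.36. Arrays of the same number did not deviate together (r -0.105 to 0.054, best with its own number for 0 of 4). No pairing by number was seen, but 4 numbers are too few to exclude one. The causes of these changes were not tested. Probe sets below the filter have no usable order.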

Other observations

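The genes next to Bmf in RefSeq order (GRCm38.p6) were looked at after the Bmf values were known. The nearest tested genes were Srp14, Eif2ak4 and Gpr176 on one side and Bub1b, Pak6 and Ankrd63 on the other. Srp14, a subunit of the signal recognition particle, had a log2 difference of 0.19 ± 0.16, and Bub1b, a kinase of the mitotic checkpoint, one of 0.42 ± 0.23. Eif2ak4, a kinase that senses lack of amino acids, was at -0.66 ± 0.38. Gpr176, an orphan receptor, was at 2.46 ± 0.86 with overlapping groups, at 730 ± 954 (SD, n = 5) in the wild type and 2172 ± 358 (n = 4) in the mutants. None of the 6 passed (limma adjusted p 0.696 to 0.979).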
